A study of Mus musculus with 12 samples.

Results

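The fibroblast growth factor (FGF) system of the M. gastrocnemius was described through 10 genes of the 22206 transcripts on the array. They were chosen by name, namely the receptor genes Fgfr1, Fgfr2, Fgfr3 and Fgfr4, the co-receptor genes Kl (alpha-klotho) and Klb (beta-klotho), and the ligand genes Fgf23, Fgf21, Fgf1 and Fgf2. Each of the 10 genes had 1 row of 10 probes in the deposited table, so no choice between rows was needed. Adult male C57BL/6J mice, purchased at 19 weeks of age and given as 6.5 months old, received a semi-synthetic diet with a high (1.2%, P1.2 group) or an adequate (0.3%, P0.3 group) phosphorus concentration for 6 weeks. Phosphorus was added as KH2PO4, and casein, in the same amount in both diets, also provided some. The P0.3 diet held KHCO3 so that the diets did not differ in potassium. The RNA of each of 6 mice per diet was measured on its own Clariom S array. The mice shared cages in pairs, and the cage was not tested. Arrays are called by the numbers in the sample labels, which are even in the P1.2 group and odd in the P0.3 group. The tissue holds many cell types, and in such samples fewer cells of a type and less RNA per cell cannot be told apart.

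FGFs are secreted growth factors that bind receptor tyrosine kinases. The paracrine members, such as FGF1 and FGF2, act near their source and need heparan sulphate as a cofactor. The endocrine members FGF23 and FGF21 bind heparan sulphate weakly and need a klotho protein instead. FGF23 comes mainly from bone and acts with alpha-klotho on the kidney, where it lowers phosphate reabsorption and the production of active vitamin D. FGF21 comes mainly from the liver, is also made by stressed muscle, and acts with beta-klotho on lipid and glucose metabolism. The comparison of the diets asks whether the phosphorus supply alters these transcripts in muscle.

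Some facts hold for all arrays. The array medians lay between 6.29 and 6.40 on the log2 scale. The mean of 5 skeletal muscle fibre markers, among them Acta1 and Ckm, was between 19.47 and 19.63 on the P1.2 arrays and between 19.49 and 19.59 on the P0.3 arrays. Of these, Acta1, Myh4 and Atp2a1 stood at 19.93, the highest signal of the table, so that the mean shows their presence and not whether the arrays were alike. The mean of 9 slow fibre markers, such as Myh7 and Tnni1, was highest on 3 arrays, with 13.00 on P1.2 array 12, 12.84 on P0.3 array 9 and 12.78 on P0.3 array 11. It was between 8.06 and 11.67 on the other 9 arrays. Of these, P1.2 array 2 had 11.67, and the next were P1.2 array 8 and P0.3 array 3, with 10.29 each. Results that rest on the 3 highest arrays are given with and without them. Leaving them out keeps 5 P1.2 arrays, among them array 2, and 4 P0.3 arrays. With limma, 0 of 22206 transcripts had an adjusted p under 0.05, while 722 (3.25%) had an unadjusted p under 0.05. With the methods' test, the plain comparison of means per transcript that the study used, these counts were 0 and 810.

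The signals of the 10 genes fell into 2 ranges. As a yardstick, the 1451 olfactory and vomeronasal receptor transcripts of the array were used, whose function is in sensory epithelia, and 95% of them had a mean log2 signal below 6.11. Fgfr1, Fgfr3, Fgf1 and Fgf2 lay above this level on all 12 arrays. Fgfr2, Fgfr4, Kl, Fgf23 and Fgf21 lay below it on all 12 arrays, and Klb lay above it on 1 array. With the level of the 99th percentile, 6.90, the same 4 genes had their mean above it. A signal of an array depends on its probes, so this yardstick is rough, and beyond it the signals are not compared between genes.

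**Figure D1:**
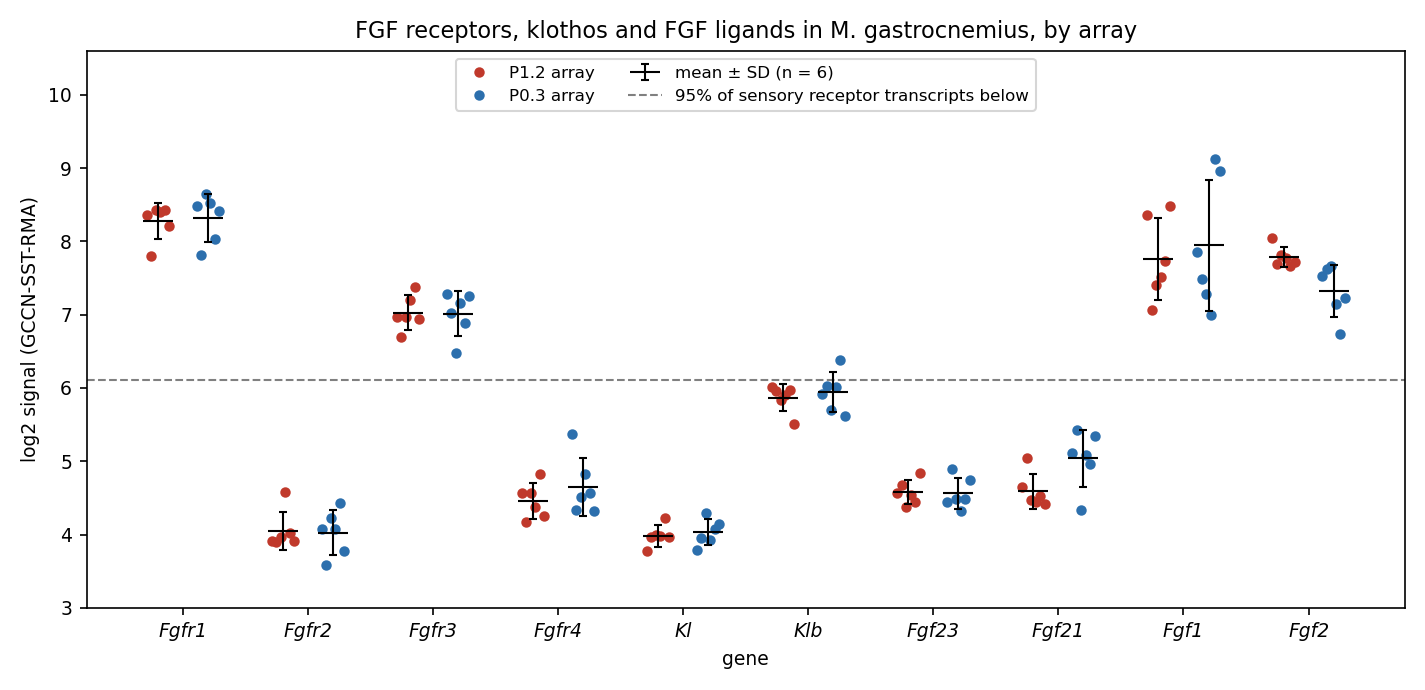
Log2 signal (vertical axis) of the 10 genes (horizontal axis) on 6 P1.2 arrays (red) and 6 P0.3 arrays (blue), with bars for the mean ± SD, and a dashed line at 6.11, below which 95% of the sensory receptor transcripts lie. Fgfr1, Fgfr3, Fgf1 and Fgf2 lie above the line on every array, the P1.2 points of Fgf2 lie between 7.66 and 8.04, and Fgf1 has the widest spread of the 10 genes.

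At the study's criteria, a fold change over 1.3 in size (0.38 on the log2 scale) and an unadjusted p under 0.05 (here that of limma), 1 of the 10 genes was higher in the P1.2 group, Fgf2, and 1 was lower, Fgf21. Of all transcripts, 0.919% were higher and 1.36% lower at these criteria (2.28% in either direction). With the methods' test in place of limma, both genes were called too, where 0.639% of all transcripts were higher and 1.0% lower. These 2 calls are single genes, and no count over the 10 genes is drawn from them. The adjusted p was 0.9999 with limma for each of the 10 genes, so neither call passed the correction over all transcripts. The split of higher and lower calls over all transcripts depended on the scaling, with 204 higher and 303 lower as deposited, 240 and 213 with quantile normalization, and 287 and 203 with arrays centred on their medians. The 95% intervals of the other 8 genes held 0. For Fgfr1, Fgfr2, Fgfr3, Kl, Klb and Fgf23 they lay within 0.40 on the log2 scale to either side. Fgfr2, Kl, Klb and Fgf23 had means below the sensory receptor level, where a narrow interval of the signal sets no bound on a change of the transcript.

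**Figure D2:**
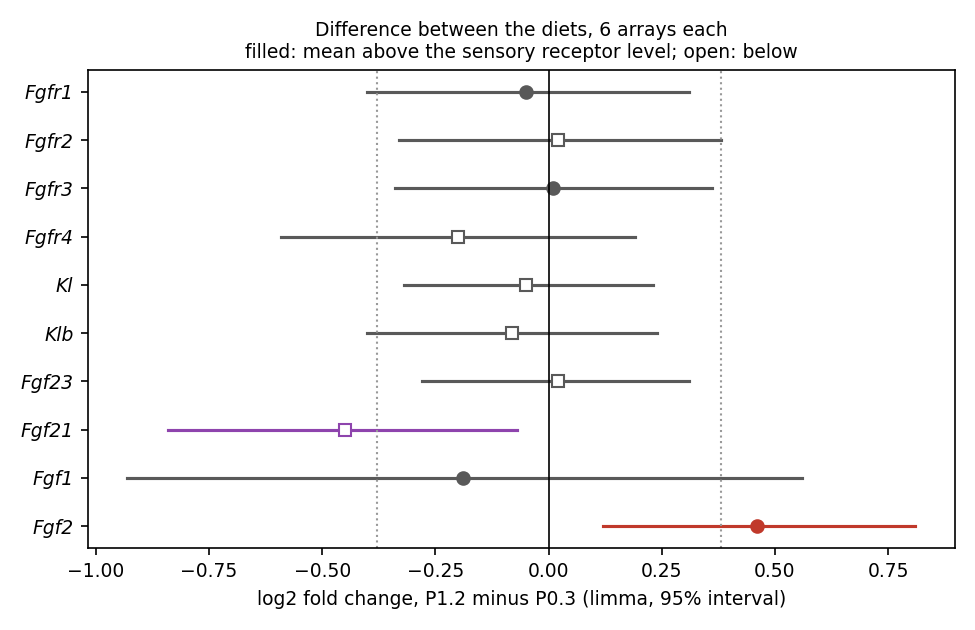
Log2 fold change, P1.2 minus P0.3 (horizontal axis), of the 10 genes with the 95% interval of limma, where filled points are genes with a mean above the sensory receptor level and dotted lines mark the fold change threshold of 0.38. The interval of Fgf2 (0.12 to 0.81) lies above 0 and that of Fgf21 (-0.84 to -0.07) below it, and the other 8 intervals cross 0.

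Fgf2 encodes basic FGF, a heparin-binding mitogen for myoblasts, fibroblasts and endothelial cells. The array annotation places it at chr3:37348346-37410106 on the plus strand (positions of mouse build GRCm38). Its log2 signal was 8.04, 7.69, 7.82, 7.77, 7.66 and 7.72 on P1.2 arrays 2, 4, 6, 8, 10 and 12, against 7.53, 7.62, 7.66, 7.14, 6.73 and 7.23 on P0.3 arrays 1, 3, 5, 7, 9 and 11. Of the P1.2 arrays, 5 lay above all P0.3 arrays, and the groups overlapped only because P1.2 array 10 lay just below P0.3 array 5. The means were 7.78 ± 0.14 in the P1.2 group and 7.32 ± 0.36 in the P0.3 group (SD, n = 6 each). The log2 fold change was 0.46 (standard error 0.16), which is 1.38-fold (95% interval 1.08 to 1.75). The exact permutation test of the difference of means gave p = 0.0043 (two-sided). The limma p was 0.012 before and 0.9999 after adjustment. Of all transcripts, 0.153% had groups without overlap, and Fgf2 was not among them. The share of transcripts with the lesser separation of Fgf2 was not counted. The P0.3 group carried most of the spread, and its lowest array was P0.3 array 9, with 6.73, followed by P0.3 array 7, with 7.14.

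The call of Fgf2 rested on P0.3 array 9, which is rich in slow fibre genes. Without P0.3 array 9 the log2 fold change was 0.34, under the threshold of 0.38, with a limma p of 0.032 and p = 0.0043 by the exact permutation test. Without P1.2 array 12 and P0.3 arrays 9 and 11 together, which was tried after the values were seen, it was 0.31 (standard error 0.17, limma p = 0.086, exact permutation test, p = 0.016). With the slow fibre mean as a covariate it was 0.46 (standard error 0.16). Of the markers of other cells, the pericyte gene Rgs5 was lower in the P1.2 group, with 13.09 ± 0.39 against 13.62 ± 0.35 in the P0.3 group (SD, n = 6 each, exact permutation test, p = 0.035). Over the 12 arrays, with the diet means removed, Rgs5 and Fgf2 had a Pearson's r of -0.10 (permutation test, p = 0.749) and a Spearman's rho of 0.14 (p = 0.668). This r was 0.24 without the 2 arrays farthest from the median of Rgs5, 0.82 within the P1.2 group and -0.52 within the P0.3 group. The smooth muscle and pericyte list as a whole, of which 1 of 5 genes was called, ranged from 9.16 to 9.71 in the P1.2 group and from 9.29 to 10.21 in the P0.3 group. The mean of that list had an r of -0.63 with Fgf2 (permutation test, p = 0.027, adjusted p = 0.675 over 100 relations) and a rho of -0.50 (p = 0.104). Its r was -0.14 without the 2 farthest arrays, 0.35 within the P1.2 group and -0.93 within the P0.3 group, and the part of these cells in the difference of Fgf2 was not tested. The gene Nudt6, on the minus strand, overlaps Fgf2 in the annotation, and its log2 signal was 8.89 ± 0.18 in the P1.2 group and 8.95 ± 0.18 in the P0.3 group (SD, n = 6 each).

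Fgf21 lies at chr7:45613890-45615490 on the minus strand of the same build. Its log2 signal was 4.65, 5.05, 4.47, 4.44, 4.53 and 4.42 on P1.2 arrays 2, 4, 6, 8, 10 and 12, against 5.11, 5.42, 4.33, 5.09, 4.96 and 5.35 on P0.3 arrays 1, 3, 5, 7, 9 and 11. The groups overlapped through 1 array of each: P1.2 array 4 was the high array of its group, and P0.3 array 5 the lowest of all 12. The means were 4.59 ± 0.24 in the P1.2 group and 5.04 ± 0.39 in the P0.3 group (SD, n = 6 each). The log2 fold change was -0.45 (standard error 0.18), a ratio of 0.73 (95% interval 0.56 to 0.95). The limma p was 0.024 before and 0.9999 after adjustment, and the exact permutation test gave p = 0.052 (two-sided). Every one of the 12 signals lay under 6.11, where 95% of the sensory receptor transcripts lie.

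The call of Fgf21 was lost without P0.3 array 3 (-0.38, limma p = 0.061, exact permutation test, p = 0.082) or without P0.3 array 11 (-0.39, limma p = 0.056, exact permutation test, p = 0.080). It was also lost without the 3 arrays rich in slow fibre genes, with -0.36 (standard error 0.22, limma p = 0.118, exact permutation test, p = 0.167). With the slow fibre mean as a covariate the log2 fold change was -0.45 (standard error 0.18).

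**Figure D3:**
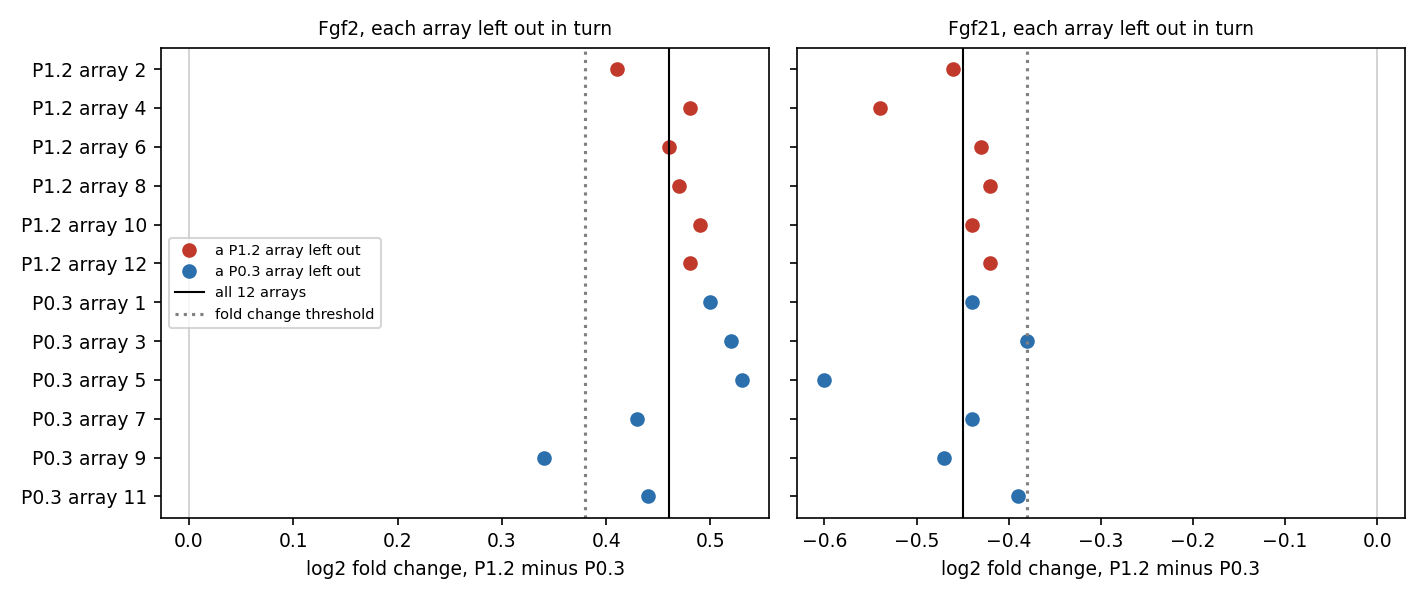
Log2 fold change, P1.2 minus P0.3 (horizontal axis), of Fgf2 (left) and Fgf21 (right) with the array named on the vertical axis left out, where the solid line is the value of all 12 arrays and the dotted line the fold change threshold. Fgf2 ranges from 0.34 to 0.53, with only the fit without P0.3 array 9 below the threshold, and Fgf21 ranges from -0.60 to -0.38.

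The promoters of both called genes are shown because these are the 2 genes that passed the study's criteria. RefSeq's GRCm38.p6 table held a promoter for 8 of the 10 genes, from 250 bases before to 50 bases after the start. Capitals mark each match on either strand to TATAAA (the TATA box), GGGCGG (the GC box), TGATGNAA (the composite site of ATF4 and C/EBP proteins), CACGTG (the E-box) or CCAAT. The window of Fgf21 is chr7:45615441-45615740 on the minus strand, and that of Fgf2 is chr3:37348403-37348702 on the plus strand. The Fgf2 window lies inside the span of the gene in the array annotation, which begins at 37348346, because the 2 sources give different starts.
Fgf21: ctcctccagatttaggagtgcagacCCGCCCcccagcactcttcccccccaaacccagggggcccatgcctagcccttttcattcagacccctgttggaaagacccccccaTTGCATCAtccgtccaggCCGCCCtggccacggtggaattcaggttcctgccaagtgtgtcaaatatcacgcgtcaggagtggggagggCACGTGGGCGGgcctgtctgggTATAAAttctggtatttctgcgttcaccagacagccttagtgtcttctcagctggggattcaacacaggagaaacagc
Fgf2: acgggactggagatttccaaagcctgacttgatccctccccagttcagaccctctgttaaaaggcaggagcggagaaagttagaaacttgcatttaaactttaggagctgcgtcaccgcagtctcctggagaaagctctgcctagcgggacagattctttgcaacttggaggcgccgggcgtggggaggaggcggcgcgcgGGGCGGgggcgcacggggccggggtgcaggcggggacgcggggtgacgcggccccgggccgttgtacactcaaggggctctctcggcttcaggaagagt
The Fgf21 window held the ATF4 and C/EBP letters on the reverse strand, as TTGCATCA, starting 139 bases before the start, a motif present in 4.0% of the 32851 promoters of this length. It also held a TATA box starting 28 bases before the start (13.6% of promoters), a CACGTG 50 bases before it (7.2%) that shares its last letter with a GC box, and 3 GC boxes in all (35.7%). The Fgf2 window held 1 GC box and no match to the other 4 motifs (CCAAT stood in 37.4% of promoters), and its GC content was 62.7%, against 58.0% in the Fgf21 window and a median of 52.7% over all promoters. A match of letters is not a site in use.

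A list around the regulation of Fgf21 held 23 measured genes, with transcription factors such as Atf4 and Ppara, kinases and targets of the integrated stress response, and their partners. With limma, 1 of the 23 was higher and 0 were lower at the study's criteria, with 1 having an unadjusted p under 0.05, and the median log2 fold change was 0.01, against -0.01 over all transcripts. The higher gene was Chac1, a target of ATF4 that breaks down glutathione and is not itself a regulator of Fgf21. None of the transcription factors of the list passed. Its log2 signal was 7.10, 8.19, 9.95, 10.25, 8.95 and 9.45 on P1.2 arrays 2, 4, 6, 8, 10 and 12, against 6.49, 6.17, 9.02, 4.93, 8.18 and 8.15 on P0.3 arrays 1, 3, 5, 7, 9 and 11. The log2 fold change was 1.83 (95% interval 0.50 to 3.16, exact permutation test, p = 0.048, limma adjusted p = 0.9999), and the groups overlapped. P0.3 array 5 had the highest Chac1 of its group and the lowest Fgf21 of all arrays, while P1.2 array 2 had the lowest Chac1 of its group and, after P1.2 array 4, the highest Fgf21. Other arrays did not follow this order, as P0.3 array 11 was high in both, with 8.15 for Chac1 and 5.35 for Fgf21, and P0.3 array 7, with the lowest Chac1 of all arrays, was in the middle of its group for Fgf21. The relation of Chac1 and Fgf21, looked at after the values were seen, had a Pearson's r of -0.56 (permutation test, p = 0.053, adjusted p = 0.080 over 3 such relations) and a Spearman's rho of -0.64 (p = 0.030) over the 12 arrays with the diet means removed. It was -0.61 within the P1.2 group, -0.54 within the P0.3 group, and -0.75 without the 2 arrays farthest from the median of Chac1. Atf4 itself, which encodes the transcription factor of this response, had 13.92 ± 0.37 in the P1.2 group and 13.71 ± 0.29 in the P0.3 group (SD, n = 6 each, exact permutation test, p = 0.294).

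Fgf1 encodes acidic FGF, which binds all FGF receptors, and is on chromosome 18. Its log2 signal was 8.36, 7.07, 7.41, 7.51, 7.73 and 8.48 on P1.2 arrays 2, 4, 6, 8, 10 and 12, against 7.85, 7.49, 7.28, 6.99, 9.12 and 8.96 on P0.3 arrays 1, 3, 5, 7, 9 and 11. The high arrays were P0.3 arrays 9 and 11 and P1.2 arrays 12 and 2, and the groups overlapped over most of their range. The highest array was 4.41-fold above the lowest, and only 1.6% of all transcripts had a larger SD within the diets than the 0.74 of Fgf1. No difference between the diets was detected, with 7.76 ± 0.56 in the P1.2 group and 7.95 ± 0.89 in the P0.3 group (SD, n = 6 each). The log2 fold change was -0.19 (95% interval -0.93 to 0.56, exact permutation test, p = 0.665). The interval includes changes past the fold change threshold in both directions.

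The signal of Fgf1 followed the slow fibre genes from mouse to mouse. With the diet means removed, its Pearson's r with the mean of the 9 slow fibre markers was 0.93 over the 12 arrays (permutation test, p = 5e-05) and Spearman's rho was 0.86 (p = 0.00044). Among the 100 relations of the 10 genes with 10 marker lists this was the 1 with an adjusted p under 0.05 (adjusted p = 0.005 for r and 0.044 for rho). It held within the P1.2 group (r = 0.89) and within the P0.3 group (r = 0.96), and r was 0.90 without the 2 arrays farthest from the median slow fibre mean. Without all 3 arrays rich in slow fibre genes, r was 0.78 (exact permutation test over 9 arrays, p = 0.013, adjusted p = 0.131 over the 10 marker lists) and rho 0.73 (p = 0.031), so the relation kept its sign but did not pass the adjustment. Fgf1 was higher by 0.37 on the log2 scale per unit of the slow fibre mean. With that mean as a covariate the SD of Fgf1 within the diets was 0.29 in place of 0.74, and the log2 fold change between the diets was -0.18 (standard error 0.17). Without the 3 arrays rich in slow fibre genes it was 0.22 (standard error 0.25, limma p = 0.395, exact permutation test, p = 0.50), so its direction was not settled. P1.2 array 2, with a slow fibre mean of 11.67 and an Fgf1 signal of 8.36, stayed among these 9 arrays. The P0.3 arrays kept reached at most 10.29 in the slow fibre mean and 7.85 in Fgf1. The mean of the endothelial markers also moved with Fgf1 (r = 0.82, permutation test, p = 0.0014, adjusted p = 0.070, and rho = 0.80, p = 0.0024), with r = 0.70 without the 2 farthest arrays and 0.51 without the 3 arrays rich in slow fibre genes (exact permutation test, p = 0.158). The mean of the smooth muscle and pericyte markers had an r of 0.73 with Fgf1 (permutation test, p = 0.0075, adjusted p = 0.249) and a rho of 0.69 (p = 0.016), with r = 0.56 without the 2 farthest arrays and 0.33 without the 3. The mean of the Schwann cell markers had an r of 0.59 (permutation test, p = 0.043, adjusted p = 0.869) and a rho of 0.63 (p = 0.032), with r = 0.76 without the 2 farthest arrays and 0.61 without the 3. The endothelial mean was itself related to the slow fibre mean (r = 0.89, permutation test, p = 0.00022, and rho = 0.87, p = 0.00042, with r = 0.79 without the 2 farthest arrays), and the part of each in the level of Fgf1 was not tested.

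**Figure D4:**
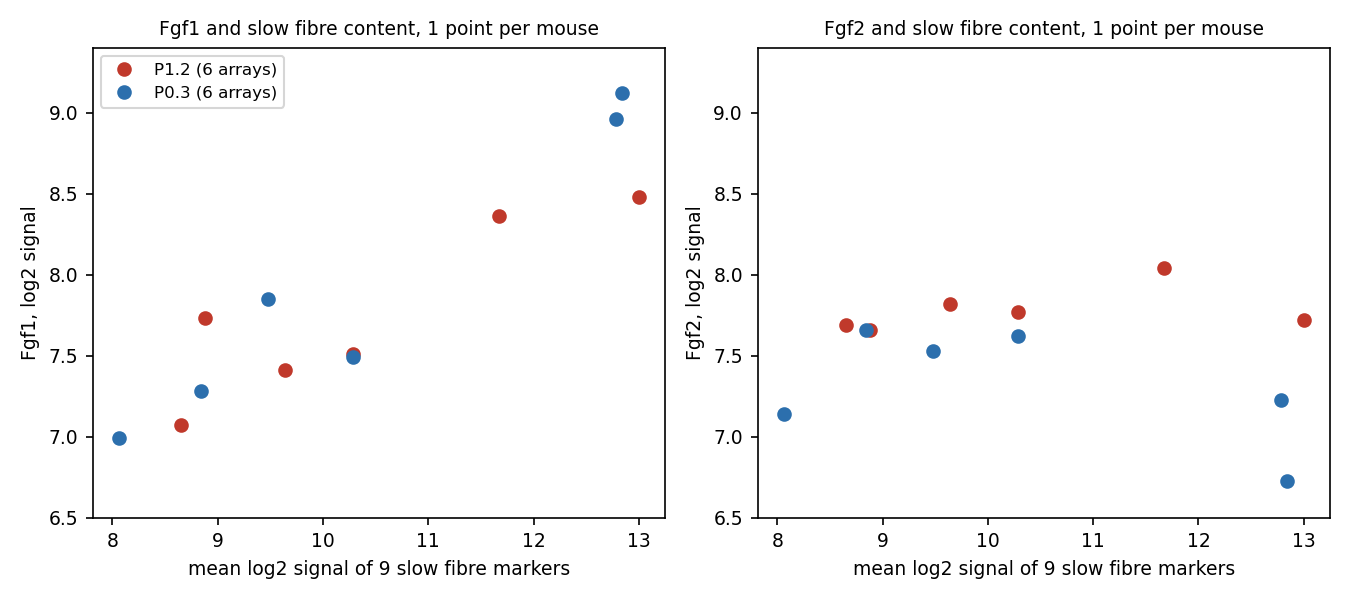
Log2 signal of Fgf1 (left) and Fgf2 (right) against the mean log2 signal of 9 slow fibre markers (horizontal axes), with 1 point per mouse for 6 P1.2 arrays (red) and 6 P0.3 arrays (blue). Fgf1 is high, between 8.36 and 9.12, on the 4 arrays with the highest slow fibre mean, while the lowest point of Fgf2, 6.73, is that of P0.3 array 9, which is rich in slow fibre genes.

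Fgf23, the phosphate-lowering hormone gene of bone, was not detectably different between the diets in muscle, and its signals lay in the range of the sensory receptors. They ran from 4.38 to 4.84 with a median of 4.55 on the P1.2 arrays, against 4.32 to 4.89 with a median of 4.48 on the P0.3 arrays. The log2 fold change was 0.02 (95% interval -0.28 to 0.31, exact permutation test, p = 0.874). This interval of the signal reaches neither side of the fold change threshold. With every signal below the sensory receptor level, it sets no bound on a change of the transcript. Of 18 measured genes of the FGF23 and vitamin D axis, 0 passed the study's criteria in either direction with limma, and 0 had an unadjusted p under 0.05. Over all transcripts these shares were 2.28% and 3.25%, at which a count of 0 does not set 18 genes apart. The vitamin D receptor gene Vdr, named after its values were seen, had 7.69 ± 0.44 in the P1.2 group and 7.97 ± 0.31 in the P0.3 group (SD, n = 6 each), and Cyp24a1, the classic vitamin D target, 4.95 ± 0.23 in the P1.2 group and 4.97 ± 0.18 in the P0.3 group (SD, n = 6 each).

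Kl, the co-receptor gene of FGF23 that is mainly expressed in kidney, ran from 3.77 to 4.23 with a median of 3.97 on the P1.2 arrays, against 3.79 to 4.30 with a median of 4.01 on the P0.3 arrays. The groups overlapped almost fully, and the log2 fold change was -0.05 (95% interval -0.32 to 0.23, exact permutation test, p = 0.636). Klb, the co-receptor gene of FGF21 in liver and adipose tissue, ran from 5.51 to 6.01 with a median of 5.93 on the P1.2 arrays, against 5.62 to 6.38 with a median of 5.96 on the P0.3 arrays. Its log2 fold change was -0.08 (95% interval -0.40 to 0.24, exact permutation test, p = 0.593). Only P0.3 array 9, with 6.38, lay above the sensory receptor level.

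Of the receptor genes, Fgfr1, whose product binds FGF2 and also acts with the klothos, was measured above the sensory receptor level on every array. Its log2 signal was 8.36, 7.80, 8.43, 8.40, 8.43 and 8.21 on P1.2 arrays 2, 4, 6, 8, 10 and 12, against 8.48, 7.82, 8.65, 8.52, 8.03 and 8.41 on P0.3 arrays 1, 3, 5, 7, 9 and 11. The low arrays were 1 of each group, P1.2 array 4 and P0.3 array 3, and the groups overlapped. The means were 8.27 ± 0.24 in the P1.2 group and 8.32 ± 0.32 in the P0.3 group (SD, n = 6 each), with a log2 fold change of -0.05 (95% interval -0.40 to 0.31, exact permutation test, p = 0.797). Fgfr3, a receptor gene best known from cartilage, averaged 7.02 ± 0.24 in the P1.2 group and 7.01 ± 0.30 in the P0.3 group (SD, n = 6 each). Its log2 fold change was 0.01 (95% interval -0.34 to 0.36, exact permutation test, p = 0.961). The array with the lowest Fgfr3 was P0.3 array 5, with 6.47, and the highest was P1.2 array 10, with 7.38.

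Fgfr4, a receptor gene of liver and of regenerating muscle, ran from 4.17 to 4.83 with a median of 4.47 on the P1.2 arrays, against 4.32 to 5.37 with a median of 4.53 on the P0.3 arrays. Its log2 fold change was -0.20 (95% interval -0.59 to 0.19, exact permutation test, p = 0.351), and the highest value was that of P0.3 array 1. Of 6 satellite cell markers, such as Pax7, 1 lay above the sensory receptor level, and their mean ranged from 5.34 to 5.79 in the P1.2 group and from 5.26 to 5.70 in the P0.3 group. Fgfr2, a receptor gene of epithelia, ran from 3.90 to 4.58 with a median of 3.94 on the P1.2 arrays, against 3.59 to 4.43 with a median of 4.07 on the P0.3 arrays. Its log2 fold change was 0.02 (95% interval -0.33 to 0.38, exact permutation test, p = 0.885).

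The genes around the receptors were described with lists. Of 18 other FGF ligand genes, all measured, 0 passed these criteria in either direction with limma, with 0 at an unadjusted p under 0.05, and the median log2 fold change was -0.06. Of 31 genes of heparan sulphate and FGF binding, 0 were called either way, with 0 at an unadjusted p under 0.05 and a median of -0.01. Over all transcripts, 0.919% were higher, 1.36% were lower and 3.25% had an unadjusted p under 0.05. Among 23 genes of the adaptors and the MAPK arm, 1 was higher, the adaptor gene Frs3, with 5.14 ± 0.35 in the P1.2 group and 4.75 ± 0.30 in the P0.3 group (SD, n = 6 each, limma p = 0.044, exact permutation test, p = 0.056), both below the sensory receptor level. Its paralog Frs2 had 10.62 ± 0.33 in the P1.2 group and 10.49 ± 0.23 in the P0.3 group (SD, n = 6 each, exact permutation test, p = 0.426).

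Of 22 genes of feedback and transcriptional targets, 1 was higher and 1 lower, and the median was -0.10. The transcription factor gene Myc was higher, with 8.31 ± 0.46 in the P1.2 group and 7.78 ± 0.47 in the P0.3 group (SD, n = 6 each, limma p = 0.040, exact permutation test, p = 0.069), and the MAPK phosphatase gene Dusp14 was lower, with 8.12 ± 0.51 in the P1.2 group and 8.58 ± 0.27 in the P0.3 group (SD, n = 6 each, limma p = 0.049, exact permutation test, p = 0.082). With the methods' test Frs3, Myc and Dusp14 did not pass, and of the 4 genes called in the lists only Chac1 did. The best known readouts of FGF signalling, named here after their values were seen, passed in neither direction. The immediate early gene Egr1 had the lowest value of the list, a difference of -1.24 on the log2 scale with a standard error of 0.79. Dusp6, an ERK phosphatase gene, differed by 0.03 on the log2 scale (standard error 0.18), the transcription factor gene Etv5 one of 0.05 (standard error 0.34), and the feedback inhibitor gene Spry4 one of -0.18 (standard error 0.17). Over the 6 lists together, 3 of 135 measured genes (2.22%) were higher and 1 (0.74%) lower, against 0.919% and 1.36% of all transcripts. No gene of these lists had an adjusted p under 0.05 with limma.

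**Figure D5:**
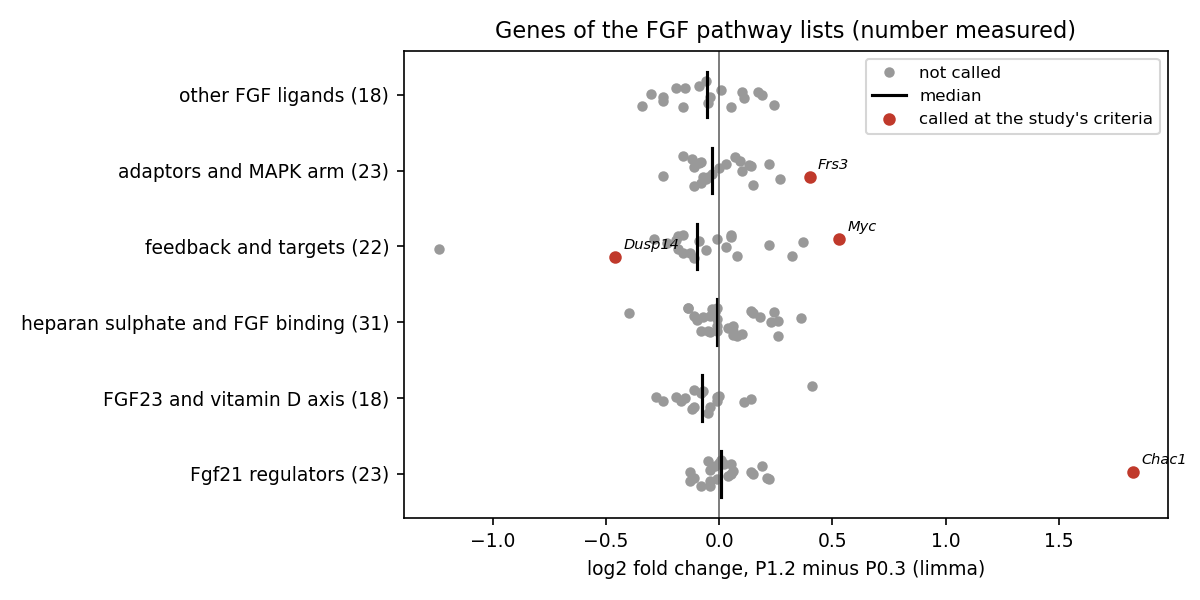
Log2 fold change, P1.2 minus P0.3 (horizontal axis), of each measured gene of 6 lists around the FGF system (rows), with red points for genes called at the study's criteria and a black bar for the median. The medians lie between -0.10 and 0.01, and the 4 genes called with limma are Chac1, Myc, Frs3 and Dusp14, of which only Chac1 passed with the methods' test.

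Among the 10 genes themselves, 45 pairs were compared over the 12 arrays with the diet means removed, and 0 had an adjusted p under 0.05 for Pearson's r, where 3 had an unadjusted p under 0.05 by the permutation test. Fgfr4 and Fgf23, both below the sensory receptor level, had an r of -0.67 (permutation test, p = 0.015, adjusted p = 0.401) and a rho of -0.84 (p = 0.0013, adjusted p = 0.058), and r was -0.84 without the 2 arrays farthest from the median of Fgfr4. Fgfr1 and Fgf21 had an r of -0.65 (permutation test, p = 0.020, adjusted p = 0.401) and a rho of -0.45 (p = 0.139), and without the 2 farthest arrays r was -0.29. Fgfr1 and Fgf23 had an r of -0.62 (permutation test, p = 0.027, adjusted p = 0.401) and a rho of -0.73 (p = 0.0084), and r was -0.35 without the 2 farthest arrays. Both relations of Fgfr1 were thus weaker without those arrays. Within the P1.2 and P0.3 groups, r was -0.85 and -0.57 with Fgf21, and -0.61 and -0.63 with Fgf23.

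For the 4 genes above the sensory receptor level, the transcripts with the highest Pearson's r over the 12 arrays were listed, with the diet means removed. They are a description picked from the 11869 transcripts above that level, and the difference between the diets does not enter this r. Those nearest to Fgf1 were Homer2 (r = 0.98), Smtnl1 (r = 0.98) and Acadm (r = 0.97), the last the gene of medium-chain acyl-CoA dehydrogenase in fatty acid oxidation. Nearest to Fgf2 were Meis1 (r = 0.92), 1700025G04Rik (r = 0.90) and Gm20852 (r = 0.88). Their log2 fold changes between the diets were -0.18, 0.06 and -0.01, against 0.46 for Fgf2. Fgfr3 stood nearest to Esyt1 (r = 0.90), Ces1b (r = 0.90) and Setd1a (r = 0.86), and Fgfr1 to Ube2q1 (r = 0.86), Gm15440 (r = 0.85) and Tln2 (r = 0.84).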

How the data were processed

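Total RNA of 12 M. gastrocnemius samples was measured on Clariom S mouse arrays. The authors computed the deposited log2 signals per transcript with GCCN-SST-RMA (Expression Console, version 1.4), which normalizes across arrays, and the values were used here as deposited. Their columns of group means, fold changes and p-values were not used, and 0 columns of values lay outside the samples. The series matrix, also deposited, gives these log2 signals with 2 decimals. Precision is limited by the number of arrays, and no detection calls were given. The genome build is not given in the sources used here. Of 20138 symbols, 97.7% had a start or end within 1000 bases of RefSeq's GRCm38.p6, and that build is named.

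The limma package (3.58.1, in R 4.3.3) fitted lmFit and eBayes to all 22206 transcripts as the difference of the P1.2 group from the P0.3 group, with Benjamini-Hochberg adjustment over all of them. P-values of other fits named in the text are limma's, too. For single genes the diet labels were also permuted in all 924 ways (exact, two-sided, smallest p 0.0022). The methods' test in the text is that of Student on the same values. Correlations over 12 arrays used 100000 permutations. Fits and correlations, run in Python 3.11.15 and R, had been tested on simulated data.

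The 10 genes and all lists were chosen with earlier results of these data known. The text names the 10 genes, list members at the study's criteria, and for each of the 10 with a mean above the sensory receptor level the 3 most similar transcripts. Alternatives were the methods' test, array weights and a trended, robust prior in limma, quantile normalization, median centring, the rounded table, unlogged signals, the slow fibre mean as covariate, a filter on dim transcripts and leaving out each array in turn. Leaving out the 3 arrays rich in slow fibre genes, and the permutation tests on fewer than 12 arrays, were added after the data were seen.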

Additional observations from a re-analysis of the deposited data

Results flagged for a closer look

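In the 20 groups of 6 arrays (10 genes in 2 diets), 4 held an array farther from the rest than Dixon's 95% criterion allows, where chance marks about 1 in 20 groups. All 4 were in the P1.2 group. The 20 groups are not independent, since the 10 genes were read on the same 12 arrays. The share of such groups over all transcripts was not counted, so the 4 are not read as a result about these genes. Fgfr2 stood at 4.58 on P1.2 array 8, above the other P1.2 arrays, which ended at 4.02. Klb stood at 5.51 on P1.2 array 12, below the next array at 5.83. On P1.2 array 4, Fgfr1 was low, with 7.80 against 8.21 on the next array, and Fgf21 was high, with 5.05 against 4.65 on the next array. Without P1.2 array 4 the log2 fold change of Fgf21 was -0.54 (limma p = 0.0083, exact permutation test, p = 0.024) and that of Fgfr1 was 0.05 (limma p = 0.775, exact permutation test, p = 0.766). The signals of Fgfr2, Klb and Fgf21 on these arrays lay below the sensory receptor level.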

How the results depend on the processing

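No paired analysis was possible because the diets share no replicate numbers. Fgf2 and Fgf21 kept their direction and call under the methods' test, the robust and trended limma prior, array weights, quantile normalization, median centring, the slow fibre covariate and the rounded table, with 0.45 to 0.49 for Fgf2 and -0.50 to -0.41 for Fgf21, and the ratio of unlogged signals gave 0.43 and -0.48. Leaving out each array gave 0.34 to 0.53 for Fgf2 and -0.60 to -0.38 for Fgf21, so that the count of higher genes was 0 to 1 and of lower genes 0 to 1. Genes whose groups do not overlap numbered 0 as deposited and 0 to 1 (Fgf2) without an array. Without the 3 arrays rich in slow fibre genes, Fgf2 had 0.31 and Fgf21 -0.36, both counts were 0, and Klb (0.02), Fgf23 (-0.01) and Fgf1 (0.22) changed sign. The cause was not tested, and fewer arrays entered. The relation of Fgf1 with the slow fibre mean had r = 0.78 there, with an adjusted p of 0.131 by the exact permutation test. Without an array in turn, signs changed for Fgfr1 (-0.15 to 0.05), Fgfr2 (-0.08 to 0.10), Fgfr3 (-0.10 to 0.08), Kl (-0.10 to 0.01), Klb (-0.14 to 0.01), Fgf23 (-0.04 to 0.08) and Fgf1 (-0.38 to 0.05). Array weights turned Fgfr1 to 0.01 and Fgf23 to -0.03, and quantile normalization turned Fgfr3 to -0.0012. Of the 6 lists, 3 genes were higher and 1 lower as deposited. With the methods' test these were 1 and 0, with array weights 5 and 2. Lower genes numbered 2 with quantile normalization, 0 with median centring and 3 with the slow fibre covariate. Without an array there were 1 to 6 higher and 0 to 3 lower. The adjusted p of Fgfr1, Fgfr3, Fgf1 and Fgf2 stayed at 0.9999 over the transcripts above the sensory receptor level. Averaging several rows of a gene did not apply, as each gene has 1. Signals near the sensory receptor level limit what can be read from 6 of the 10 genes.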

Other observations

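Among the other FGF ligand genes, 9 of 18 had a mean above the sensory receptor level. These genes were named after their values were seen. Fgf6, which is best known from the myogenic lineage, had a log2 signal of 6.90 ± 0.35 in the P1.2 group and 6.80 ± 0.53 in the P0.3 group (SD, n = 6 each). Fgf13, an intracellular FGF homologous factor that binds sodium channels, had 8.25 ± 0.58 in the P1.2 group and 8.13 ± 0.81 in the P0.3 group (SD, n = 6 each). Fgf12, of the same intracellular group, had the largest difference of the 18, with 6.46 ± 0.27 in the P1.2 group and 6.80 ± 0.33 in the P0.3 group (SD, n = 6 each, limma p = 0.064, exact permutation test, p = 0.078). Fgfrl1, a receptor without a kinase domain, had 8.66 ± 0.68 in the P1.2 group and 8.44 ± 0.65 in the P0.3 group (SD, n = 6 each, exact permutation test, p = 0.580).

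Of 58 markers of 10 cell types and fibre types, 0 passed as higher and 2 as lower with limma, Rgs5 and the adipocyte gene Lep, where 0.919% of all transcripts were higher and 1.36% lower. Lep had 5.19 ± 0.26 in the P1.2 group and 5.74 ± 0.30 in the P0.3 group (SD, n = 6 each, exact permutation test, p = 0.0087), both below the sensory receptor level. The other 5 adipocyte markers had log2 fold changes above 0, between 0.05 for Adipoq and 0.76 for Cfd (standard error 0.51), and none of them passed. The median of the 6 was 0.14.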
